A study of Mus musculus with 32 samples.

Results

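Lactate dehydrogenase turns pyruvate into lactate and back, and a small set of carriers moves these acids across the plasma membrane and into mitochondria. The 9 genes described here were chosen by symbol, out of 41388 genes counted in every library, and each symbol matched 1 Ensembl gene. Ldha and Ldhb encode the subunits of cytosolic L-lactate dehydrogenase, and Ldhd encodes the mitochondrial enzyme that oxidizes D-lactate. Slc16a1, Slc16a3 and Slc16a7 encode the proton-coupled lactate carriers MCT1, MCT4 and MCT2, and Bsg encodes basigin, the chaperone that brings MCT1 and MCT4 to the cell surface. Mpc1 and Mpc2 encode the subunits of the mitochondrial pyruvate carrier. Cartilage has no blood vessels and chondrocytes live largely on glycolysis, so lactate is a major product of these cells. The LDH-A subunit is best known for making lactate from pyruvate, which restores the NAD+ that glycolysis needs, and the LDH-B subunit is best known from oxidative tissues such as heart.

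The data are total RNA-seq counts from primary sternal chondrocytes of newborn C57BL/6 mice, cultured in normoxia without passage, in 16 conditions of 2 libraries each. Wild-type cells were left untreated or received FX11 (an LDHA inhibitor, 40 µM), IL-1b (an inflammatory cytokine, 10 ng/mL) or both for 24 h. Chondrocytes carrying floxed Ldha, Nampt or Nfkbiz alleles were infected with adenovirus carrying GFP or Cre for 24 h and then kept with or without IL-1b for 24 h. Nampt encodes the rate-limiting enzyme of NAD+ salvage and Nfkbiz encodes IκB-ζ, a nuclear partner of NF-κB. All floxed cells thus received a virus and no wild-type cells did, and no cells without a floxed allele received Cre, so within a line the action of Cre itself and the loss of the gene cannot be told apart. The Nampt and Nfkbiz lines are therefore used here as a comparison for the Ldha line. Nothing in the labels ties the 2 libraries of a condition to separate litters or cultures, so p-values measure the spread between these libraries, which may be technical.

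Library totals ran from 15830658 to 39959888 reads assigned to genes, with a median of 25363482. Titles came in 2 styles, called library set 1 (12 libraries) and set 2 (20 libraries) here. Wild-type, Ldha and Nampt conditions had 1 library of each set, and both Nfkbiz libraries were of set 2. A list of 10 chondrocyte genes including Col2a1, Acan and Sox9 summed to 26770–94520 CPM (counts scaled to a common library total) after GFP and to 14180–86080 CPM after Cre. Lists of macrophage and leukocyte, muscle, erythroid and endothelial genes summed to at most 55.1 CPM in any floxed library. The macrophage and leukocyte list was higher in wild-type libraries (83.0–225.5 CPM), where the muscle list summed to 22.5–243.7 CPM. A list of 6 fibroblast or perichondrium genes summed to 767–5881 CPM in floxed and 4016–9777 CPM in wild-type libraries. After GFP without IL-1b it summed to 1009–1207 CPM in Nfkbiz, 5695–5881 CPM in Ldha and 4841–5010 CPM in Nampt flox cells. No marker of the chondrocyte, fibroblast, macrophage or endothelial lists was at 0 in both libraries of a condition. In bulk samples, fewer cells of a type and less RNA per cell cannot be told apart. Mmp3, a matrix protease gene that IL-1b raised from at most 2.78 CPM to at least 849.0 CPM in all GFP-treated floxed cells, went against 2 wild-type labels. It stood at 0.784 CPM in the set 2 library labelled IL-1b and at 2016 CPM in the set 2 library labelled FX11, opposite to the labels. Lcn2 and Il6, other genes that respond to IL-1b, ran the same way, with Lcn2 at 17.2 CPM in the library labelled IL-1b and at 12540 CPM in the one labelled FX11. These 2 labels may be exchanged, which the files cannot settle, and every wild-type mean and fold that includes the libraries depends on it. The labels were kept, and wild-type results are given with and without these 2 libraries.

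Regions just upstream of starts annotated in RefSeq (GRCm38.p6) were read, and 7 of the 9 members had an entry. Slc16a7 and Bsg had none. The windows of the 4 members that carry most of the changes are shown, 250 bases ending at the annotated start, 5′ to 3′ on the gene's strand. Capitals mark ACGTG and GCGTG on either strand, the letters found at the core of sites for hypoxia-inducible factors, regulators of glycolytic genes.
Ldha, chr7:46845554-46845803, plus strand: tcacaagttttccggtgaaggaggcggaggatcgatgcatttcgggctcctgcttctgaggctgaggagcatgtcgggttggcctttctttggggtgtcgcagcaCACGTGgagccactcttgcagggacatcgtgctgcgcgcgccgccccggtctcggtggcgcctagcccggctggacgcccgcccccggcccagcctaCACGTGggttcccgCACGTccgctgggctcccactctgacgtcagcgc
Slc16a1, chr3:104638414-104638663, plus strand: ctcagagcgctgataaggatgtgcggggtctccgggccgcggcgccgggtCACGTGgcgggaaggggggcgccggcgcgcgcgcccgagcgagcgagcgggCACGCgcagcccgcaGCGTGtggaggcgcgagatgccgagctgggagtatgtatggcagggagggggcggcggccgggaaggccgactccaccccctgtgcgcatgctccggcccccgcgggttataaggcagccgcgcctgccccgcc
Slc16a3, chr11:120948817-120949066, plus strand: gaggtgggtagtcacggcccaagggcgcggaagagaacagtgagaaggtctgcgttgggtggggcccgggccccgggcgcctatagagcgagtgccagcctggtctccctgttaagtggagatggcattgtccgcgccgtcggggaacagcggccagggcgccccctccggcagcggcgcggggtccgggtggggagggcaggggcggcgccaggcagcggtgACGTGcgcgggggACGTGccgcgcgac
Ldhb, chr6:142507958-142508207, minus strand: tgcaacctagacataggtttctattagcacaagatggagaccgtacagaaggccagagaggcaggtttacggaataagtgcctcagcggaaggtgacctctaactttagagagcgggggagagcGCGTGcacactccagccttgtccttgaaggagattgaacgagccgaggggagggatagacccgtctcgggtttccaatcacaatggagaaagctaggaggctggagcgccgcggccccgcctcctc
Ldha held 5 matches to ACGTG, Slc16a1 held 2 and Slc16a3 held 2, with both strands counted and each palindrome counted on both. Ldhb held none of these, and its single match was to GCGTG. The 6-letter palindrome that contains the first motif on both strands, CACGTG, occurred 2 times upstream of Ldha and 1 time upstream of Slc16a1. Of all 32851 windows of the same length in the table, 16.6% held ACGTG, 28.2% held GCGTG and 6.02% held CACGTG. The motif was not confined to members that changed: Ldhd, with no called change, held 2 matches to ACGTG. These matches are letters in a window and were not tested as binding sites. The Ldha window belongs to the first of 2 listed starts, and the second start had 0 matches to ACGTG and 1 to GCGTG. The Ldha and Slc16a3 windows lie inside the intervals of the counted genes, which begin further upstream at chr7:46841475 and chr11:120948480.

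Ldha (ENSMUSG00000063229, chr7:46841475-46855627, plus strand, GRCm38) was higher per length than Ldhb in every library, and its counts check the Ldha labels. The Ldha flox libraries held 918 and 869 CPM after GFP against 118 and 111 CPM after Cre. Adding IL-1b gave 1557 and 1547 CPM after GFP against 81.3 and 72.9 CPM after Cre. Libraries with and without Cre did not overlap, and Cre left 12.8% of the GFP level without IL-1b and 4.97% with it. The log2 fold change was -2.98 ± 0.08 (SE; adjusted p = 2.58e-07) without IL-1b and -4.31 ± 0.09 (adjusted p = 6.79e-09) with IL-1b, by edgeR's quasi-likelihood test with Benjamini-Hochberg adjustment over all genes tested. Counts are per whole gene and the deleted exons are not given in the sources used here, so reads from the rest of the gene and reads from cells without a deletion cannot be told apart. In the same way Nampt fell from 59.5 and 54.6 CPM to 6.72 and 6.86 CPM in its own line, and Nfkbiz fell from 235.1 and 228.8 CPM to 29.5 and 32.3 CPM under IL-1b in its line. Nfkbiz was also lower after Cre under IL-1b in lines that keep it, at 69.7 and 66.9 against 176.9 and 164.3 CPM in the Ldha line and at 67.7 and 60.8 against 202.4 and 203.6 CPM in the Nampt line, so its fall is not a check of its deletion alone.

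**Figure D1:**
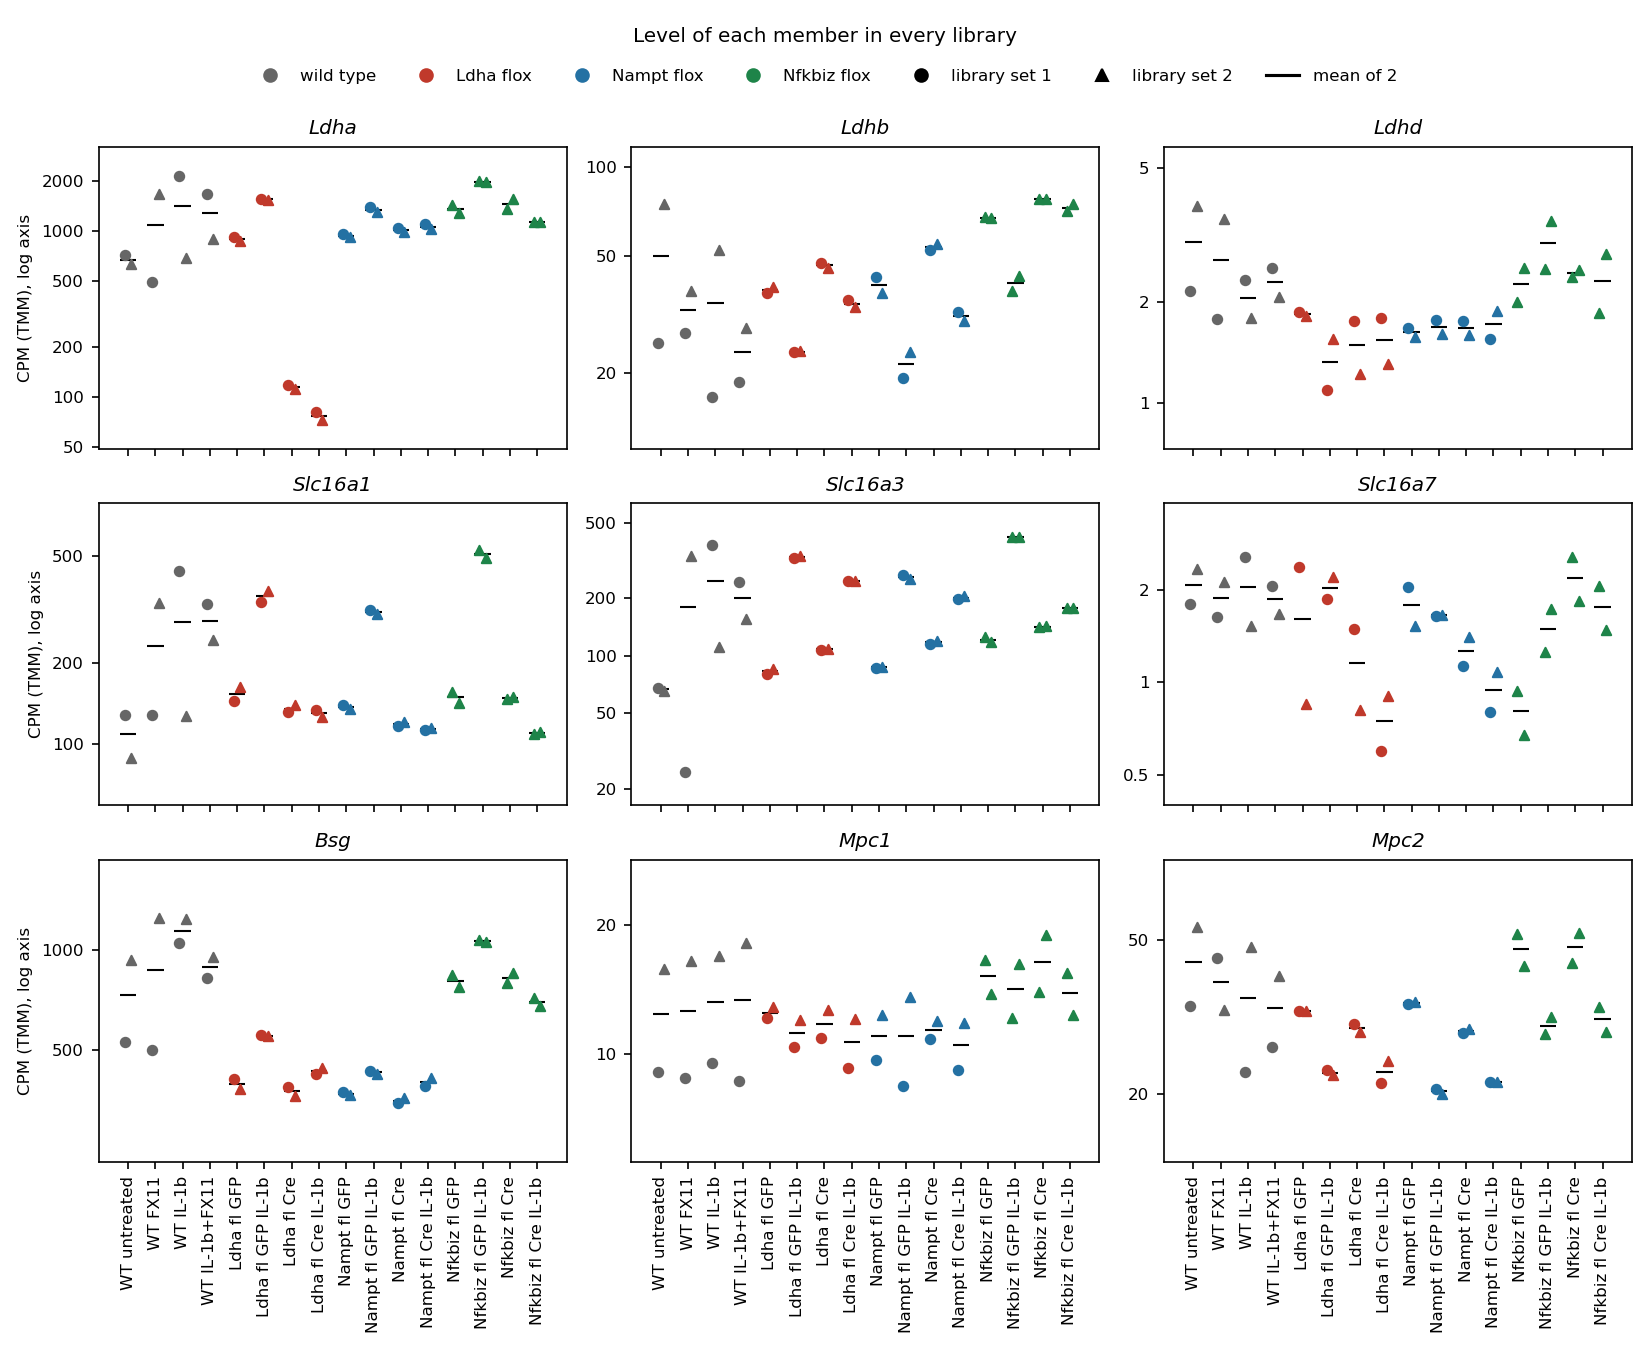
Each panel plots 1 member gene, with CPM scaled by TMM factors on a log axis and the 16 conditions along the horizontal axis. Points are single libraries, colours are lines, circles are library set 1 and triangles set 2, and bars are means of 2. Ldha drops to 72.9–118 CPM in the 4 Cre libraries of Ldha flox cells, and the wild-type pairs are spread far more widely than the floxed pairs.

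The Ldha levels of the other lines did not show this drop. Nampt flox cells had Ldha at 965 and 915 CPM after GFP and at 1043 and 988 CPM after Cre, a difference of 0.10 on the log2 scale that was called only with the library set as a block (adjusted p = 0.0122 against 0.338). In Nfkbiz flox cells it was at 1427 and 1289 CPM after GFP and at 1365 and 1551 CPM after Cre. Under IL-1b the effect of Cre in these lines was a smaller fall, from 1394 and 1303 to 1096 and 1026 CPM in Nampt cells and from 1991 and 1982 to 1134 and 1136 CPM in Nfkbiz cells. Those falls were 0.33 ± 0.06 (SE) and 0.82 ± 0.11 on the log2 scale, and both passed the test (adjusted p = 0.00121 and 0.000204). The Cre effect on Ldha in its own line differed from the mean of the other lines by -3.07 ± 0.09 without IL-1b and by -3.75 ± 0.09 with it (adjusted p = 6.71e-17 and 1.21e-18).

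Ldha-ps2, an annotated pseudogene of Ldha that was named after its values were seen, moved with Ldha. It stood at 2.64 and 3.03 CPM after GFP and at 0.209 and 0.181 CPM after Cre in Ldha flox cells, and at 2.14–10.1 CPM in every library of wild-type, Nampt flox and Nfkbiz flox cells. Reads of this pseudogene and of Ldha may therefore not be fully separated in the counts.

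Ldhb (ENSMUSG00000030246, chr6:142490249-142507957, minus strand) encodes the other cytosolic subunit, and it rose after Cre in all 3 floxed lines under IL-1b, including those that kept Ldha. The Ldha flox cells gave 37.4 and 39.2 CPM after GFP and 47.2 and 45.5 CPM after Cre. Under IL-1b the same cells gave 23.6 and 23.7 CPM after GFP and 35.4 and 33.4 CPM after Cre. The Cre libraries lay above the GFP libraries with and without IL-1b, with no overlap. The fold change was 1.48 with IL-1b (log2 0.57 ± 0.08, adjusted p = 0.000492) and 1.20 without it (log2 0.26 ± 0.08, 95% interval 0.08 to 0.43, adjusted p = 0.102). With the library set as a block, the value without IL-1b was 0.26 and passed the test (adjusted p = 0.0353).

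Cells that kept Ldha showed the following Ldhb levels. Nampt flox cells gave 42.3 and 37.4 CPM after GFP and 52.3 and 54.9 CPM after Cre without IL-1b, and 19.2 and 23.5 against 32.1 and 30.1 CPM with it. Both differences were called, at log2 0.41 ± 0.10 (adjusted p = 0.0207) and 0.57 ± 0.11 (adjusted p = 0.00143). The first of these lost its call without either Nampt Cre library or without the set 2 GFP library (adjusted p up to 0.118), at log2 values of 0.36 to 0.51 over all 8 libraries left out in turn. Nfkbiz flox cells gave 67.4 and 67.0 CPM after GFP and 77.6 and 78.1 CPM after Cre without IL-1b, a difference that was not called (log2 0.20 ± 0.09, adjusted p = 0.859). With IL-1b they gave 38.0 and 42.8 CPM after GFP and 70.8 and 74.8 CPM after Cre, which was called at log2 0.83 ± 0.10 (adjusted p = 7.1e-05). Set against the mean of the other lines, the Cre effect on Ldhb in Ldha flox cells differed by -0.04 without IL-1b (95% interval -0.26 to 0.18, adjusted p = 1.0). With IL-1b the difference was -0.15 (95% interval -0.38 to 0.08, adjusted p = 0.536). A larger rise in the Ldha line was not detected, and the upper ends of these intervals were 0.18 and 0.08. Against each line alone, in comparisons added after the values were seen, the intervals were wider. Without IL-1b the difference was -0.15 (95% interval -0.40 to 0.11) against Nampt cells and 0.07 (-0.19 to 0.32) against Nfkbiz cells. With IL-1b it was 0.01 (-0.27 to 0.28) and -0.30 (-0.56 to -0.04), and none was called.

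Per length of transcript, the gain of Ldhb was small beside the loss of Ldha. In RPKM, which is CPM divided by exon length in kilobases, Ldha fell from 299.6 to 38.5, a loss of 261.1, and Ldhb went from 24.4 to 29.5, a gain of 5.13, in Ldha flox cells without IL-1b. With IL-1b, Ldha fell from 520.5 to 25.9 RPKM, a loss of 494.7, and Ldhb rose from 15.1 to 21.9 RPKM, a gain of 6.86. Their sum after Cre was 20.98% of that after GFP without IL-1b and 8.92% with it. For Nampt flox cells the same sum was 110.0% and 80.7% of the GFP level, and in Nfkbiz flox cells 108.1% and 61.7%. Because Ldha fell so far, Ldhb made up 43.4% ± 0.4 (SD, n = 2) of the summed RPKM after Cre in Ldha flox cells, against 7.54% ± 0.50 after GFP. With IL-1b the share was 45.9% ± 0.9 after Cre and 2.81% ± 0.02 after GFP. In the other floxed conditions the share lay between 2.55% and 11.1% in every library.

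**Figure D2:**
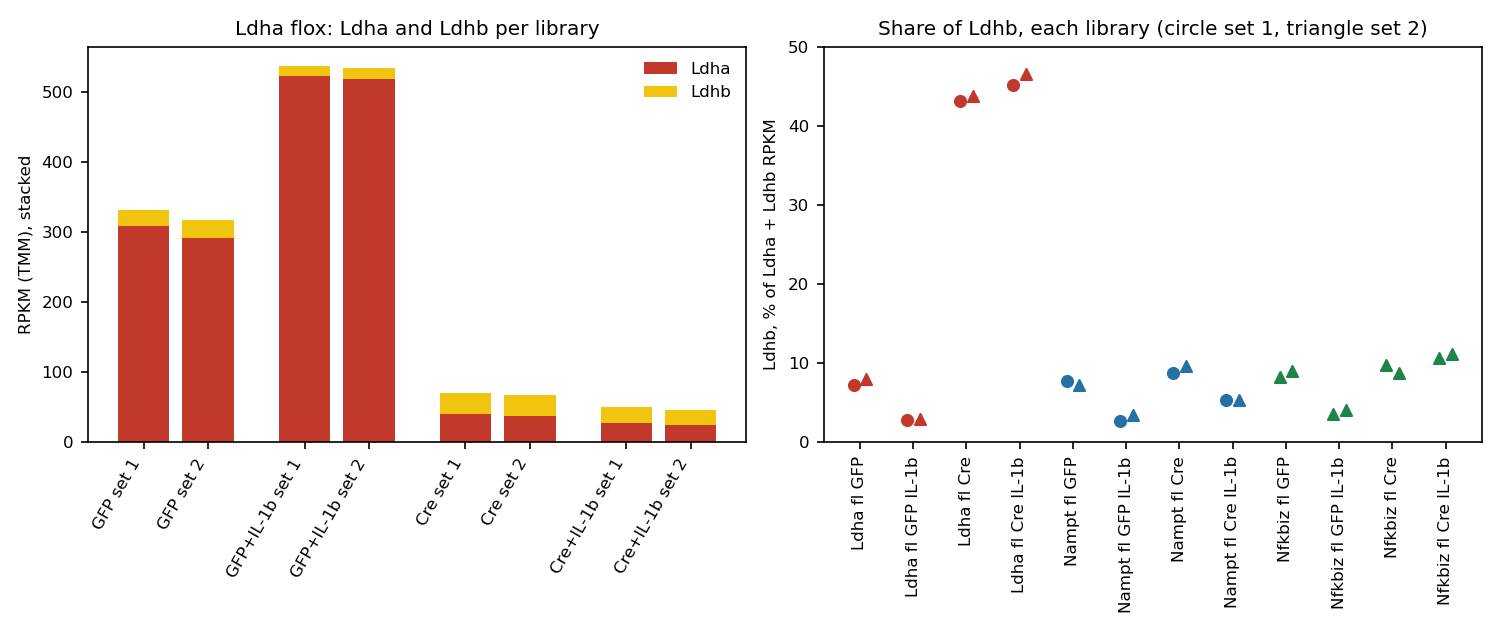
The left panel stacks Ldha and Ldhb RPKM for each Ldha flox library, and the right panel gives Ldhb as a percent of summed Ldha and Ldhb RPKM for each floxed library. Summed levels are 45.7–69.7 RPKM in the 4 Cre libraries and 316.3–537.2 RPKM in the 4 GFP libraries, and the Ldhb share is 43.1–46.6% after Cre in Ldha flox cells.

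Ldhd (ENSMUSG00000031958, chr8:111623785-111630374, minus strand) was near the bottom of detection in all cells. It lay between 1.10 and 3.86 CPM over the 32 libraries, with a median of 1.83 CPM. No neighbouring pair of conditions in the order of its level was free of overlap, which was not counted over all genes. Its Cre effect in Ldha flox cells was -0.31 ± 0.34 without IL-1b and 0.28 ± 0.35 with IL-1b on the log2 scale, and neither was called. Its exons overlap those of Znrf1 on the opposite strand, and whether the counting used strand is not given in the sources used here.

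Slc16a1 (MCT1; ENSMUSG00000032902, chr3:104638668-104658462, plus strand) showed the largest called change of any carrier after Cre, under IL-1b. Without IL-1b, Ldha flox cells gave 145 and 163 CPM after GFP and 131 and 140 CPM after Cre. With IL-1b, 339 and 373 CPM after GFP stood against 135 and 127 CPM after Cre. IL-1b thus raised Slc16a1 after GFP (log2 1.21 ± 0.09, adjusted p = 7.28e-06), while after Cre the levels with and without it overlapped (log2 -0.02 ± 0.09, 95% interval -0.22 to 0.18, adjusted p = 0.918). The response differed between Cre and GFP by -1.22 ± 0.13 (adjusted p = 0.000309).

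Cells with intact Ldha gave levels in the same order. In Nampt flox cells Slc16a1 went from 140 and 135 CPM to 316 and 306 CPM with IL-1b after GFP, and from 117 and 121 to 113 and 115 CPM after Cre. In Nfkbiz flox cells it went from 157 and 143 CPM to 526 and 494 CPM after GFP, and from 147 and 150 to 109 and 111 CPM after Cre. In all 3 lines the libraries with Cre and IL-1b lay below every library with GFP and IL-1b, and below or among those without IL-1b. Under IL-1b the Cre effect was -1.42 ± 0.09 in Ldha, -1.43 ± 0.06 in Nampt and -2.23 ± 0.10 in Nfkbiz flox cells, all called (adjusted p = 2.64e-06, 1.57e-08 and 1.01e-08). Without IL-1b it was -0.20 ± 0.09 (adjusted p = 0.267), -0.22 ± 0.06 (adjusted p = 0.0279) and -0.02 ± 0.09 (adjusted p = 1.0). The call in Nampt cells without IL-1b was lost in 6 of the 8 fits that left out 1 library (log2 -0.25 to -0.18, adjusted p up to 0.168).

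Slc16a3 (MCT4; ENSMUSG00000025161, chr11:120948480-120960868, plus strand), the carrier best known for lactate export from glycolytic cells, was the member that IL-1b raised most. It stood at 80.5 and 85.4 CPM after GFP in Ldha flox cells and rose to 328 and 333 CPM with IL-1b (log2 1.99 ± 0.07, adjusted p = 5.44e-08). After Cre it stood at 108 and 108 CPM and rose to 247 and 248 CPM with IL-1b (log2 1.23 ± 0.07, adjusted p = 8.41e-07). The Cre libraries were therefore higher than the GFP libraries without IL-1b and lower with it, and the groups did not overlap in either case. The Cre effect was 0.36 ± 0.07 without IL-1b (adjusted p = 0.0145) and -0.40 ± 0.07 with IL-1b (adjusted p = 0.00142), and the IL-1b response differed by -0.76 ± 0.10 (adjusted p = 0.000982). The call without IL-1b was lost when the set 1 GFP library or either Cre library of Ldha flox cells was left out (log2 0.32 to 0.41 over the 8 libraries, adjusted p up to 0.114).

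Nampt flox cells gave the same signs for Slc16a3, from 86.4 and 87.1 to 116 and 120 CPM without IL-1b and from 264.5 and 253.3 to 198 and 206 CPM with it. These differences were 0.43 ± 0.06 (adjusted p = 0.000612) and -0.34 ± 0.06 (adjusted p = 0.000538). In Nfkbiz flox cells Slc16a3 stood at 126 and 117 CPM after GFP and at 141 and 143 CPM after Cre, a difference of 0.21 ± 0.09 that was not called (adjusted p = 0.762). With IL-1b it stood at 422 and 420 CPM after GFP and at 178 and 179 CPM after Cre, a fall of 1.25 ± 0.09 on the log2 scale (adjusted p = 1.2e-06). After Cre, the Slc16a3 libraries with IL-1b thus lay above those without it in every line, and the Slc16a1 libraries did not. This response after Cre was tested in the Ldha line only. Per length, the ratio of Slc16a3 to Slc16a1 was 0.774 ± 0.044 (SD, n = 2) with GFP and IL-1b and 1.58 ± 0.07 with Cre and IL-1b in Ldha flox cells. The ratios were 0.693 and 1.48 in Nampt and 0.688 and 1.35 in Nfkbiz flox cells.

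**Figure D3:**
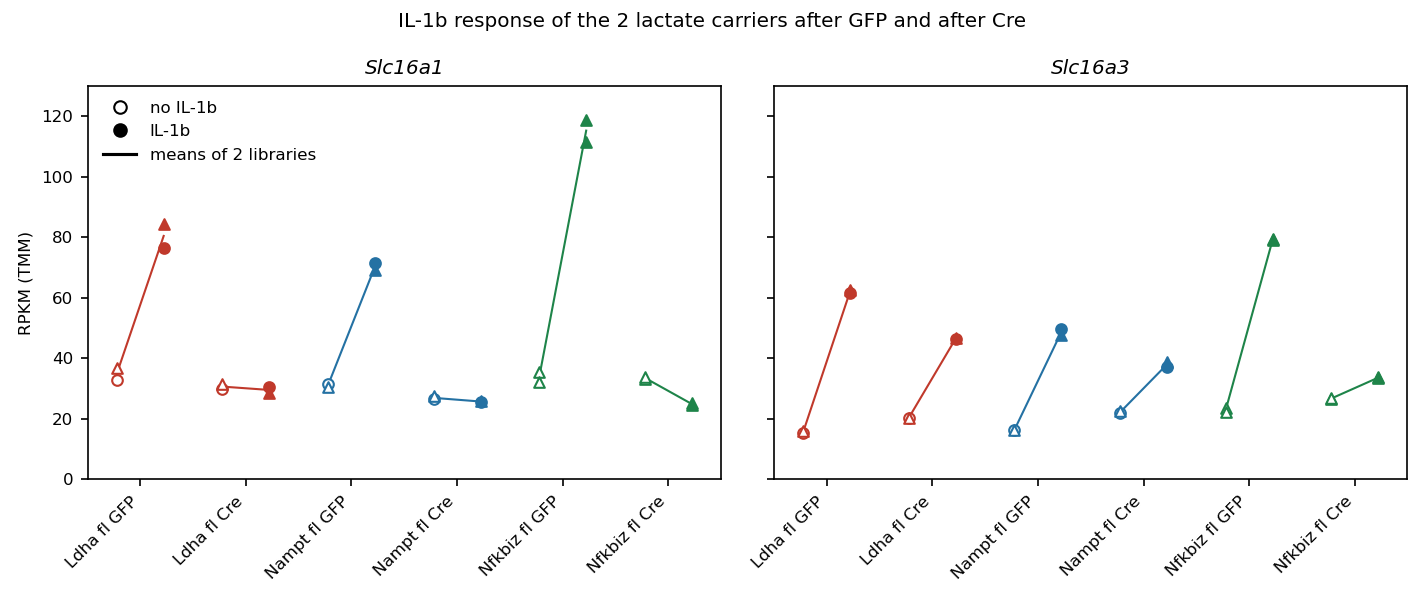
RPKM of Slc16a1 (left) and Slc16a3 (right) in the 3 floxed lines after GFP and after Cre, with open symbols without IL-1b and filled symbols with it, circles for library set 1, triangles for set 2 and lines joining means of 2 libraries. Slc16a1 lines rise after GFP and are flat or fall after Cre, while Slc16a3 lines rise in both, less steeply after Cre.

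Against the mean of the other lines under IL-1b, the Cre effect in Ldha flox cells differed by 0.40 ± 0.09 for Slc16a1 (adjusted p = 0.00572) and by 0.39 ± 0.07 for Slc16a3 (adjusted p = 0.00138). Line by line, both were called against the Nfkbiz line and not against the Nampt line. Against Nampt flox cells they were 0.02 for Slc16a1 (95% interval -0.19 to 0.23, adjusted p = 0.962) and -0.04 for Slc16a3 (95% interval -0.22 to 0.14, adjusted p = 0.895). Against Nfkbiz flox cells they were 0.77 (adjusted p = 3.58e-06) and 0.82 (adjusted p = 1e-07). Against the Nampt line 1 of 9 members, Ldha itself, and 0.538% of all genes were called. Against the Nfkbiz line 5 of 9 members, with Ldha among them, and 27.0% of all genes were called. Ldha is the gene deleted in the Ldha line, so its call was set by the design. The comparisons line by line were added after the values were seen, and all of them share the Ldha flox libraries. In the difference from the mean of the other lines, 6 of 10 chondrocyte markers were lower under IL-1b (median -0.56), and their part was not tested. The call for Slc16a1 was lost without the set 1 library of Ldha flox cells with GFP and IL-1b or with Cre and IL-1b (log2 0.33 to 0.47 over the 24 libraries, adjusted p up to 0.0859).

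Slc16a7 (MCT2; ENSMUSG00000020102, chr10:125226464-125328963, minus strand), a carrier with high affinity for its substrates, was barely detected. It lay between 0.595 and 2.57 CPM over the 32 libraries, from 16 to 93 reads. With IL-1b it stood at 1.87 and 2.21 CPM after GFP and at 0.595 and 0.904 CPM after Cre in Ldha flox cells, which was not called (log2 -1.44, 95% interval -2.63 to -0.25, adjusted p = 0.0624). It was called with the library set as a block (adjusted p = 0.0186), by DESeq2, without a filter, in the model of all 32 libraries, and without either GFP library kept free of IL-1b (log2 -1.76 to -1.16 over the 8 libraries left out in turn). The Nampt line under IL-1b gave -0.81 ± 0.36 (adjusted p = 0.0873). The Nfkbiz line without IL-1b went the other way without overlap, from 0.935 and 0.675 CPM after GFP to 2.56 and 1.84 CPM after Cre, and was not called (log2 1.44 ± 0.40, adjusted p = 0.301). At this depth smaller changes of this gene were not detectable.

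Bsg (ENSMUSG00000023175, chr10:79704491-79711969, plus strand) was the most abundant carrier component, at 346–1244 CPM over all libraries. Ldha flox cells gave 408 and 382 CPM after GFP and 388 and 364 CPM after Cre, and with IL-1b at 554 and 551 against 422.5 and 441 CPM. The first pair of groups overlapped and the second did not, with a fall of 0.33 ± 0.07 on the log2 scale (adjusted p = 0.00553). In Nfkbiz flox cells it fell under IL-1b by 0.63 ± 0.10 (adjusted p = 0.000879), from 1073 and 1056 to 717 and 677 CPM. Nampt flox cells with IL-1b gave 432.5 and 424 CPM after GFP and 390.5 and 411 CPM after Cre (log2 -0.08 ± 0.06, adjusted p = 0.257). The IL-1b response of Bsg in Ldha flox cells differed between Cre and GFP by -0.24 ± 0.10, which was called only with the library set as a block (adjusted p = 0.0397 against 0.174).

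Mpc1 (ENSMUSG00000023861, chr17:8282904-8297661, plus strand) and Mpc2 (ENSMUSG00000026568, chr1:165461037-165481214, plus strand) did not pass the test for Cre in Ldha flox cells. Mpc1 lay between 8.45 and 18.9 CPM over all libraries and was called in none of the 16 comparisons by edgeR, with 0 at an unadjusted p of 0.05 and 0 under any alternative. Its exons overlap an opposite-strand gene, 4930506C21Rik. Mpc2 stood at 32.9 and 32.7 CPM after GFP and at 30.3 and 29.0 CPM after Cre without IL-1b, and at 23.0 and 22.3 against 21.4 and 24.3 CPM with it. The Cre effects on Mpc2 were -0.16 (95% interval -0.36 to 0.03) and 0.03 (95% interval -0.17 to 0.23). IL-1b lowered Mpc2 after GFP by 0.54 ± 0.09 (adjusted p = 0.00134) and after Cre by 0.34 ± 0.09 (adjusted p = 0.013). The latter lost its call without the set 1 Cre library of either treatment (adjusted p up to 0.082). In Nampt flox cells without IL-1b, Mpc2 went from 34.1 and 34.6 to 28.8 and 29.4 CPM, which was called only with the library set as a block (log2 -0.25, adjusted p = 0.0188 against 0.0568).

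**Figure D4:**
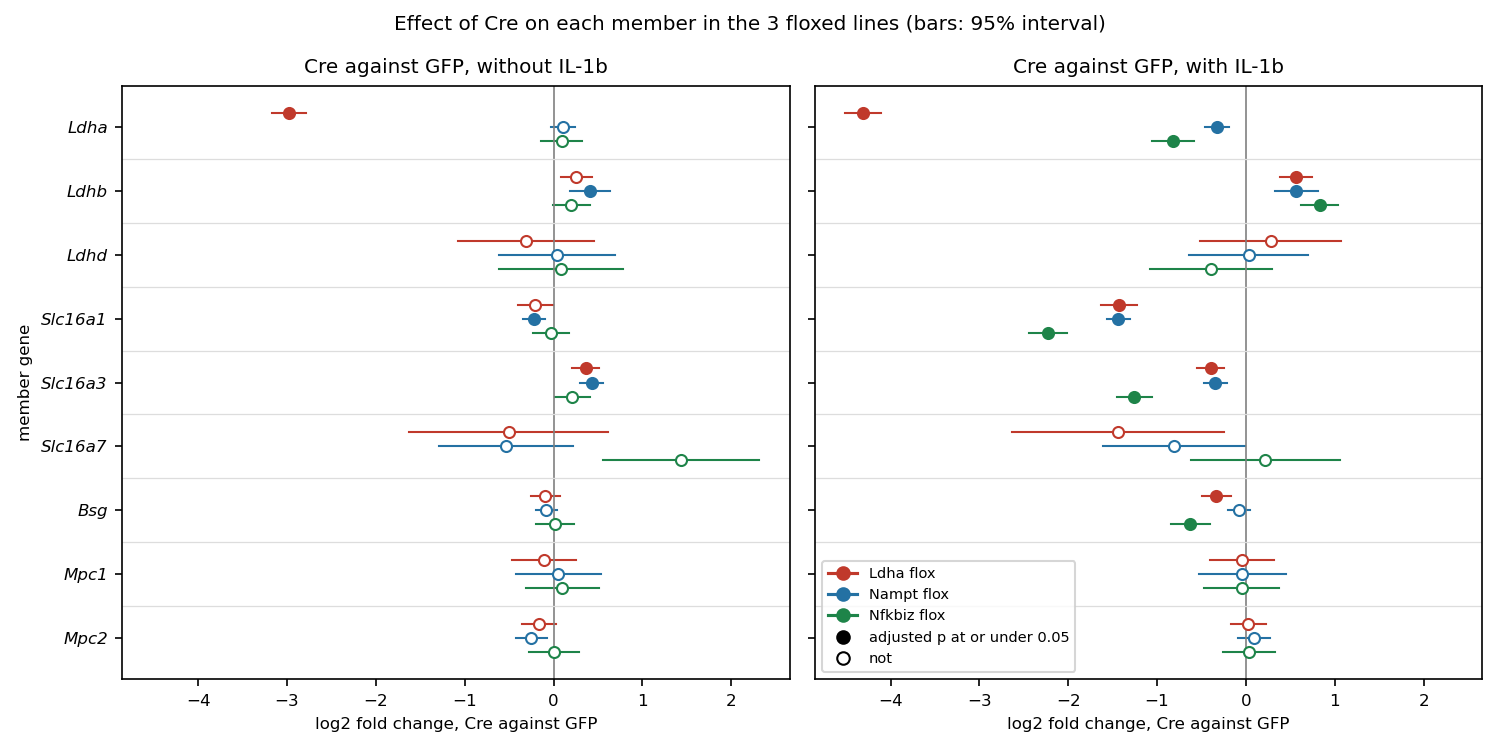
Log2 fold changes of Cre against GFP for the 9 members in the 3 floxed lines, without IL-1b (left) and with IL-1b (right), with bars for the 95% interval and filled circles for an adjusted p at or under 0.05. Ldha in Ldha flox cells stands alone at -2.98 and -4.31, and with IL-1b the Ldha line lies beside the Nampt line for Ldhb, Slc16a1 and Slc16a3.

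Counted over the members, 2 of 9 were called for Cre against GFP in Ldha flox cells without IL-1b, where 5.52% of 15880 tested genes were called (4 of 9 and 17.8% of genes at an unadjusted p of 0.05). With IL-1b 5 of 9 were called (1 higher and 4 lower) against 34.0% of all genes (16.9% higher and 17.0% lower). Ldha, the deleted gene, is among the called members with and without IL-1b, and its call was set by the design. In Nampt flox cells 3 of 9 were called without IL-1b against 14.4%, or 5 of 9 against 26.7% with the library set as a block, and 4 of 9 with IL-1b against 48.4%. In Nfkbiz flox cells 0 of 9 were called without IL-1b against 0.26% (2 of 9 and 5.93% at an unadjusted p of 0.05, 0 of 9 by DESeq2 and by limma), and 5 of 9 with IL-1b against 17.4%. The difference of the Ldha line from the mean of the others was called for 1 of 9 members without IL-1b (Ldha itself), against 0.173% of all genes. With IL-1b it was called for 3 of 9 (Ldha itself, Slc16a1 and Slc16a3), against 6.65% of all genes. The IL-1b response differed between Cre and GFP for 3 of 9 members in Ldha flox cells (Ldha itself, Slc16a1 and Slc16a3), against 11.5% of all genes. At an unadjusted p of 0.05 it differed for 5 of 9 members and 24.9% of genes. Chondrocyte markers moved with Cre as well. In Ldha flox cells 8 of 10 fell without IL-1b (median log2 -0.47) and 9 of 10 with it (median -0.86). In the Nampt line 10 of 10 and 8 of 10 fell. In the Nfkbiz line the medians were -0.16 and 0.06, with 1 of 10 lower and 1 of 10 higher under IL-1b. Col2a1 fell from 52470 and 53650 to 38610 and 38900 CPM in Ldha flox cells without IL-1b. Kdr, an endothelial receptor gene, was at 1.06 and 1.21 CPM after GFP and 7.52 and 8.28 CPM after Cre there, and the 4-gene endothelial list that holds it summed to 3.27–3.50 CPM after GFP and 10.1–11.0 CPM after Cre. With IL-1b the list summed to 4.74–5.27 CPM after GFP and 16.8–21.1 CPM after Cre. Kdr alone then stood at 1.69 and 1.65 CPM after GFP and at 17.7 and 14.0 CPM after Cre. Only 1 of the 4 genes was called as higher without IL-1b, and 1 with it, so these sums do not show a rise of the whole list. The part of these markers in the members' changes was not tested.

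IL-1b itself moved 6 of the 9 members when the 3 floxed lines with GFP were averaged, where 52.9% of 16727 tested genes were called. Ldha rose by 0.64 ± 0.04 on the log2 scale (adjusted p = 1.85e-12), Slc16a1 by 1.40 ± 0.04 (adjusted p = 1.84e-18), Slc16a3 by 1.81 ± 0.04 (adjusted p = 8.4e-22) and Bsg by 0.38 ± 0.04 (adjusted p = 9.8e-09). Ldhb fell by 0.76 ± 0.05 (adjusted p = 1.25e-11) and Mpc2 fell by 0.63 ± 0.06 (adjusted p = 4.91e-09). Ldha, Slc16a1, Slc16a3 and Bsg thus rose in the average of the lines, and Ldhb and Mpc2 fell. The response was not tested in the Nampt or Nfkbiz line alone. Mpc1, Ldhd and Slc16a7 were not called, at -0.08 ± 0.10, 0.00 ± 0.21 and 0.38 ± 0.25. All 10 chondrocyte markers fell with IL-1b in the same fit, with a median of -1.40, and their part was not tested. In Ldha flox cells, 6 of 9 members were called for IL-1b after GFP (27.9% of all genes) and 5 of 9 after Cre (35.9% of all genes). What was left of Ldha fell with IL-1b after Cre (log2 -0.53 ± 0.08, adjusted p = 0.000574), the opposite of its rise after GFP (log2 0.79 ± 0.08, adjusted p = 4.98e-05), and the responses differed by -1.33 ± 0.11 (adjusted p = 9.63e-05). The Bsg rise after Cre (log2 0.24 ± 0.07, adjusted p = 0.0266) lost its call in 5 of 8 fits that left out 1 library, among them those without either library with Cre alone (log2 0.19 to 0.28, adjusted p up to 0.181). Ldhb fell with IL-1b in both (log2 -0.70 ± 0.08 after GFP and -0.39 ± 0.08 after Cre), and the difference of 0.31 ± 0.11 was not called (adjusted p = 0.118).

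Around the 9 members, 63 genes in 7 lists of the same pathway were looked up, and 57 of them passed the filter and were tested in the Ldha flox fits. For Cre against GFP in Ldha flox cells without IL-1b, 4 of the 57 were called, a share of 7.02% near the 5.52% of all genes. The Nampt line had 12 of 57 called (14.4% of all genes) and the Nfkbiz line 0 of 56 (0.26% of all genes). The Cre effect in the Ldha line differed from the mean of those lines for 0 of 57, against 0.173% of all genes. Pcx (pyruvate carboxylase) rose by 0.55 ± 0.09 and Pfkp, a phosphofructokinase subunit, by 0.34 ± 0.07 on the log2 scale. Me1 (cytosolic malic enzyme) fell by 0.32 ± 0.08 and Gpt2 (mitochondrial alanine aminotransferase) fell by 0.26 ± 0.06. Of 13 glycolytic genes from hexokinase to enolase 1 was called, with a median of 0.08 against -0.02 over all genes tested. The medians were -0.05 over 12 genes of pyruvate dehydrogenase and its regulators and -0.02 over 10 genes of the NADH shuttles.

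With IL-1b, 26 of the 57 pathway genes were called for Cre against GFP in Ldha flox cells (45.6%), against 34.0% of all genes. The Nampt line had 32 of 57 called (48.4% of all genes) and the Nfkbiz line 24 of 56 (17.4% of all genes). The Cre effect in the Ldha line differed from the mean of those lines for 3 of 57 (5.26%), against 6.65% of all genes. In the Ldha line the lists changed as follows. Of the 12 pyruvate dehydrogenase genes 3 rose and 4 fell, with a median of 0.02 against -0.02 over all genes. Pdhb (a subunit of the complex) rose by 1.12 ± 0.09 (adjusted p = 1.22e-05), and the inhibitory kinases Pdk4 and Pdk2 rose by 1.15 ± 0.25 and 0.62 ± 0.16. The kinases Pdk1 and Pdk3 fell by 0.71 ± 0.08 and 0.39 ± 0.10, and the phosphatase genes Pdpr and Pdp2 fell by 0.53 ± 0.09 and 0.34 ± 0.12. Among 7 tested genes of other pyruvate enzymes, Gpt rose by 1.01 ± 0.25, while Pcx, Me1 and Gpt2 fell by 0.37 ± 0.09, 0.36 ± 0.08 and 0.23 ± 0.07 (median of the list -0.23). Among the NADH shuttle genes, the aspartate-glutamate carrier gene Slc25a13 rose by 1.04 ± 0.15 and Mdh2 by 0.39 ± 0.07, while Gpd2 and Slc25a12 fell by 0.42 ± 0.09 and 0.25 ± 0.09 (median 0.16). Of 13 glycolytic genes 1 rose (Pfkp, 0.24 ± 0.07) and 5 fell, among them Aldoc by 0.89 ± 0.24, Pfkl by 0.51 ± 0.12, Gapdh by 0.43 ± 0.09 and Pgk1 by 0.29 ± 0.07 (median -0.14). Emb (embigin, a chaperone of lactate carriers) fell by 1.36 ± 0.08 (adjusted p = 1.55e-06) and Hcar1, the lactate receptor, by 1.03 ± 0.28, 2 of 5 tested genes of that list (median -0.17). In the wider Slc16 family, Slc16a4 fell by 0.73 ± 0.23 and the aromatic amino acid carrier gene Slc16a10 by 0.58 ± 0.15.

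In the fit of IL-1b over the GFP-treated floxed lines, 52.9% of all genes were called, and the lists are read against that share. Of 13 glycolytic genes 11 rose and 1 fell (Pfkm, by 0.35 ± 0.06), with a median of 0.60 against 0.02 over all genes. Hk1, Gpi1, Pfkp and Hk2 led the list, rising by 0.93 ± 0.04, 0.83 ± 0.05, 0.73 ± 0.04 and 0.67 ± 0.05. Among pyruvate enzymes 4 rose and 3 fell (median 0.43). Pkm (pyruvate kinase) rose by 0.90 ± 0.04, Me2 by 0.71 ± 0.04, Gpt by 0.55 ± 0.18 and Pcx by 0.43 ± 0.04, and Gpt2, Me3 and Me1 fell by 0.71 ± 0.04, 0.64 ± 0.09 and 0.13 ± 0.04. Among pyruvate dehydrogenase genes 4 rose and 4 fell (median -0.04). Pdk1 rose by 0.61 ± 0.04, Pdk4 by 0.45 ± 0.18, Pdp1 by 0.27 ± 0.08 and Pdk3 by 0.17 ± 0.06, while Pdk2, Pdhb, Pdha1 and Pdp2 fell by 0.69 ± 0.10, 0.38 ± 0.05, 0.31 ± 0.05 and 0.23 ± 0.07. Of the shuttle genes Gpd2 and Got2 rose by 0.38 ± 0.04 and 0.36 ± 0.04, and 5 fell, led by Gpd1 (0.71 ± 0.17), Got1 (0.45 ± 0.05), Slc25a12 (0.39 ± 0.06) and Slc25a11 (0.30 ± 0.05), with a list median of -0.13. Both genes of the methylglyoxal route to D-lactate fell, Hagh by 0.61 ± 0.07 and Glo1 by 0.28 ± 0.07. Hcar1, Emb and the sodium-coupled lactate carrier gene Slc5a8 rose by 1.27 ± 0.14, 0.91 ± 0.04 and 0.70 ± 0.24, 3 of 5 tested genes of that list (median 0.70). Slc5a8 was barely detected, at 0.688 and 0.404 CPM after GFP and 1.61 and 0.941 CPM with IL-1b in Ldha flox cells. In the wider Slc16 family, Slc16a10 and Slc16a13 rose by 1.30 ± 0.09 and 1.14 ± 0.41, and Slc16a14, Slc16a4 and Slc16a6 fell by 3.88 ± 0.16, 0.88 ± 0.09 and 0.42 ± 0.15. Slc16a13 was near the floor in Ldha flox cells, at 0.201 and 0.444 CPM after GFP and 0.348 and 0.329 CPM with IL-1b. Those levels overlapped.

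In wild-type cells edgeR called no gene in any of the 4 comparisons (0.0% of 15461 genes tested), and the libraries of a condition disagreed. Ldha stood at 713 CPM (set 1) and 630.0 CPM (set 2) untreated, at 492 and 1670 CPM in the libraries labelled FX11, at 2150 and 693 CPM in those labelled IL-1b, and at 1677 and 892 CPM with both agents. Slc16a3 stood at 67.8 and 65.3 CPM untreated, at 24.6 and 336 CPM in those labelled FX11, at 382 and 111 CPM in those labelled IL-1b, and at 245 and 156 CPM with both. At an unadjusted p of 0.05, 0 of 9 members and 0.44% of genes were called for FX11 against untreated, 0.66% for both agents against IL-1b, 0.99% for IL-1b against untreated and 5.56% for both agents against untreated, with 0 of 9 members each time. DESeq2 and limma called 0 of 9 members as well. In both genes the set 2 library labelled FX11 was high and the set 2 library labelled IL-1b was low, as Mmp3 was. The conditions overlapped for this reason, and the log2 differences for FX11 against untreated were 0.71 ± 0.74 for Ldha and 1.46 ± 1.12 for Slc16a3.

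Without those 2 libraries, FX11 against untreated was -0.46 ± 0.45 for Ldha, -0.88 ± 0.71 for Ldhb, 0.24 ± 0.34 for Slc16a1 and -1.44 ± 0.35 for Slc16a3, and none was called (adjusted p = 1.0 for each). This fit, chosen after the data were seen, has 1 library for FX11 and 1 for IL-1b, each assumed to vary like the other groups. Both of these are of set 1, and the fit has no term for the library set. Untreated Ldhb stood at 25.2 CPM in set 1 and at 74.9 CPM in set 2, so its values in this fit mix treatment and set. IL-1b against untreated was then 1.68 ± 0.43 for Ldha, -1.59 ± 0.74 for Ldhb, 2.02 ± 0.33 for Slc16a1 and 2.53 ± 0.31 for Slc16a3, again with none called (adjusted p = 0.354, 0.675, 0.203 and 0.131). IL-1b with FX11 against IL-1b was -0.74 ± 0.43 for Ldha and -0.92 ± 0.31 for Slc16a3 (adjusted p = 1.0 for each). In set 1 alone, with 1 library per condition and no replicate check, FX11 gave 0.689 times the untreated Ldha level and 0.362 times the Slc16a3 level, and added to IL-1b it gave 0.780 and 0.640 times the levels with IL-1b. The ratio for Slc16a1 was 1.0 without IL-1b and 0.754 with it. For Ldhb the ratio was 1.085 without IL-1b and 1.124 with it, the former opposite in direction to the -0.88 of the fit. In set 1, IL-1b alone gave 0.658 times the untreated Ldhb level.

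The order of conditions by level differed among the members. Among the 9 members, Slc16a3 had the most neighbouring conditions free of overlap between their libraries, 9 of 15. For Slc16a1 this held for 6 of 15, for Ldha, Ldhb and Bsg for 5 of 15 each, for Mpc2 for 3 of 15 and for Mpc1, Ldhd and Slc16a7 for 0 of 15. The share over all genes was not counted, so these counts are a description and not a trait of the members. The order includes the wild-type conditions whose libraries disagreed, such as Slc16a3 at 24.6 and 336 CPM in the libraries labelled FX11. Ldhb was highest in Nfkbiz flox cells with Cre (49.6 RPKM) and lowest in Nampt flox cells with GFP and IL-1b (13.6 RPKM).

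Across the 16 condition means of log2 (CPM + 1), the genes most like a member were found among 9225 genes above 10 CPM. For Slc16a1 they were Vegfa (Pearson r = 0.953), Pdk1 (r = 0.942) and Hilpda (r = 0.935), and for Slc16a3 they were Hk1 (r = 0.958), Pkm (r = 0.951) and Car9 (r = 0.938). For Ldhb they were Wdr6 (r = 0.925), Shroom2 (r = 0.924) and Tpst1 (r = 0.913), and for Mpc1 Wdfy1 (r = 0.939), Aga (r = 0.939) and Gm38393 (r = 0.934). For Ldha, whose means include the deleted cells, the closest were Ndor1 (r = 0.840), Naf1 (r = 0.758) and Srfbp1 (r = 0.727). The 16 points share libraries, scaling and cell lines, and include the wild-type conditions whose libraries disagreed. Over the 12 floxed conditions the same 15 genes gave r of 0.721 to 0.975. These genes were picked by means that include those 12 conditions, so this range is not a separate check.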

How the data were processed

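The deposited files, 1 for each of 32 libraries, hold read counts per gene for 41388 genes. Per the labels and the study's methods, the authors aligned reads of ribosomal RNA-depleted total RNA to GRCm38 with STAR and counted them with featureCounts. Versions differ between the labels' tool list (STAR 2.0.4b, featureCounts 1.45) and the methods, and use of strand is not given in the sources used here. The deposited CPM equals count over library total in all 32 libraries, and the deposited RPKM column, made by the authors from counts and exon length, was not used further.

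Counts were tested with edgeR 4.0.16 (R 4.3.3; TMM factors, glmQLFit and glmQLFTest, Benjamini-Hochberg adjusted p at or under 0.05) on genes above 1 CPM in at least 1 library, with 355 rRNA genes left out. Comparisons within a line used its 8 libraries, and comparisons across floxed lines used 24 libraries with the library set as covariate. A standard error is the log2 fold change divided by the square root of F, and intervals are 95%. Levels are CPM, or per exon length RPKM, computed from the counts with TMM factors over all 32 libraries. Python 3.11.15, pandas 2.3.3 and matplotlib 3.10.9 made tables and figures. The fits were run on simulated counts that had the same spread setting for every gene and no difference between library sets. Such counts check that the fits recover a known change, and not their error rates for these data.

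Members, lists and rules were chosen with earlier results of these data known. All 9 members were tested in every comparison. Not every value is printed, such as the Cre effects on Ldhd and Mpc1 in Nampt and Nfkbiz flox cells. Other named genes are up to 4 called genes per direction from each of 7 pathway lists in 3 comparisons. The 3 genes most correlated with each of Ldha, Ldhb, Slc16a1, Slc16a3 and Mpc1 are also named. One item of these lists is not reported here. The library set was checked as a pairing, which the labels do not state: set 1 minus set 2 differences correlated between conditions at 0.41 to 0.65 in Ldha, 0.43 to 0.57 in Nampt and -0.24 to 0.73 in wild-type cells. Alternatives were DESeq2 1.42.0, limma 3.58.1 with quality weights, RLE factors, other filters, ribosomal protein genes left out, the library set block, 1 model of all libraries and leaving out each library. Gene names come from GENCODE M21, which named 40340 genes.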

Additional observations from a re-analysis of the deposited data

Results flagged for a closer look

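The effect of Cre differed between lines for Ldha, whose log2 difference from the mean of the Nampt and Nfkbiz lines was -3.07 without IL-1b and -3.75 with it. Under IL-1b it also differed for Slc16a1, by 0.40, and for Slc16a3, by 0.39, and both differences came from the Nfkbiz line. Within Ldha flox cells the IL-1b response differed between Cre and GFP for Ldha, by -1.33, for Slc16a1, by -1.22, and for Slc16a3, by -0.76. No group holds 4 or more libraries, so no library could be singled out within a group.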

How the results depend on the processing

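Members called out of 9 are compared here, with Ldha, the deleted gene of the Ldha line, among the 9. One model of all 32 libraries, which includes the wild-type libraries that disagree, lowered the count most: to 1 (from 2) for Cre in Ldha flox without IL-1b and 3 (from 5) with it, to 0 (from 6, 5 and 3) for IL-1b after GFP, IL-1b after Cre and their difference, to 0 (from 3) and 1 (from 4) for Cre in Nampt flox without and with IL-1b, to 1 (from 5) in Nfkbiz flox with IL-1b, and to 0 (from 1) and 1 (from 3) for the difference between lines. It called 1 (from 0) for IL-1b with FX11 against untreated wild type. An unadjusted p of 0.05 called 4, 5 and 2 for Cre in Ldha flox without IL-1b, the Ldha flox response difference and Cre in Nfkbiz flox without IL-1b. The replicate block by library set called 5 (from 3) for Cre in Nampt flox without IL-1b, with all genes at 26.7% (from 14.4%), and its other changed calls stand beside the results. Set against Nampt flox alone the difference under IL-1b was called for 1 member, Ldha itself (0.538% of all genes). Against Nfkbiz flox alone it was called for 5, with Ldha among them (27.0% of all genes). Leaving out 1 library gave 1 to 2 for Cre in Ldha flox without IL-1b, 3 to 5 for IL-1b after Cre and 1 to 3 for Cre in Nampt flox without IL-1b. Against Nampt flox alone the Slc16a3 difference under IL-1b turned to -0.041. Over all members, 2853 alternative values kept direction and call, 56 lost the call, 24 gained it and 1 (that of Slc16a3) reversed. Genes called over the whole table ranged widely over the alternatives. For Cre in Ldha flox without and with IL-1b they ran from 89 to 1994 (against 877) and from 2822 to 7120 (5392), for IL-1b after GFP, after Cre and their difference from 1414 to 6023 (4424), 3129 to 7269 (5693) and 312 to 3374 (1825), for Cre in Nampt flox from 300 to 4311 (2319) and 4934 to 9400 (7808), in Nfkbiz flox from 23 to 170 (40) and 851 to 3235 (2666), and for the differences between lines from 2 to 317 (29) and 22 to 4513 (1113). In wild type they reached 2, 16, 52 and 1561 (0). In the block by library set, wild-type members stayed at 0 called. Depth limits Ldhd and Slc16a7, with 16 to 105 reads per library.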
